A study of Mus musculus with 40 samples.

Results

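The 49 interferon-stimulated genes described here are genes that cells switch on when they sense interferon, and each was found on the arrays by its gene symbol. When a gene had several probes, the probe with the highest mean signal over the 40 arrays stood for it. RNA from the cortex and the cerebellum of C57Bl/6 mice was hybridized to 40 Agilent 1-colour arrays, and every group held 4 mice. Wild-type mice on a normal diet with 36 mg of alpha-tocopherol/kg were taken at 2 and at 29 months. Another set of wild-type mice, also 29 months old, had received a diet deficient in alpha-tocopherol. The Ttpa-/- mice were all 29 months old and had received either the deficient diet or a supplemented diet with 600 mg/kg. These 5 groups were measured in both regions. Ttpa encodes the transfer protein that carries alpha-tocopherol, the main form of vitamin E, and Ttpa-/- mice served the study as a model of chronic oxidative stress. The knockout is carried in every tissue, and no Ttpa-/- mouse received the normal diet.

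Interferons are secreted proteins that bind receptors on the same or neighbouring cells. The receptors activate the kinases Jak1, Jak2 and Tyk2, which phosphorylate transcription factors such as Stat2. A complex that holds Stat2 and Irf9 then binds the interferon-stimulated response element of target genes, and interferon gamma acts through another element, the gamma-activated site. The target genes include sensors of foreign RNA and DNA, transcription factors that strengthen the response, and proteins that block viral RNA, translation or entry. In the brain, microglia and cells of the vessels and choroid plexus are well known to carry this response.

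Signals are given on the log2 scale relative to the 75th percentile of the array, so that 0 is the level of a probe at that percentile. Differences between groups are log2 changes with the standard error from limma, fitted to all 40 arrays. A gene was called when its Benjamini-Hochberg adjusted p over all probes tested was under 0.05 and its fold change was over 1.5, and it was tested when its probe stood well above background on each of the 4 arrays of one or both groups compared. Of the arrays' probes, 51.4% to 61.4% were well above background on an array. All 6 cortical and all 6 cerebellar marker genes were called higher in their own region at both ages. The arrays lay on 5 slides, and each group lay within 1 of them. Young and aged wild-type cortex shared a slide, whereas young and aged wild-type cerebellum did not, so that slide and age cannot be told apart in the cerebellum. Differences between other groups on separate slides carry the same limit.

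Interferon-stimulated genes rose with age in the cerebellum of wild-type mice. Of the 49 genes, 45 were tested, 31 were called higher at 29 than at 2 months and 0 lower, while 3.99% of all probes tested were called higher. The median change was 1.23 over these 45 genes, 1.11 over all 49 and -0.01 over all probes tested. Rsad2 and Herc6 were tested through their aged arrays alone, since 1 or more of their young arrays were not above background. The aged arrays lay entirely above the young arrays for 33 of the 45 genes, and for 9.85% of all probes. The highest changes were those of Ifi27l2a, a small interferon-inducible membrane protein, at 2.45, a 5.48-fold rise, and of Ifit1, which binds viral RNA lacking a host cap, at 2.35, a 5.08-fold rise.

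**Figure D1:**
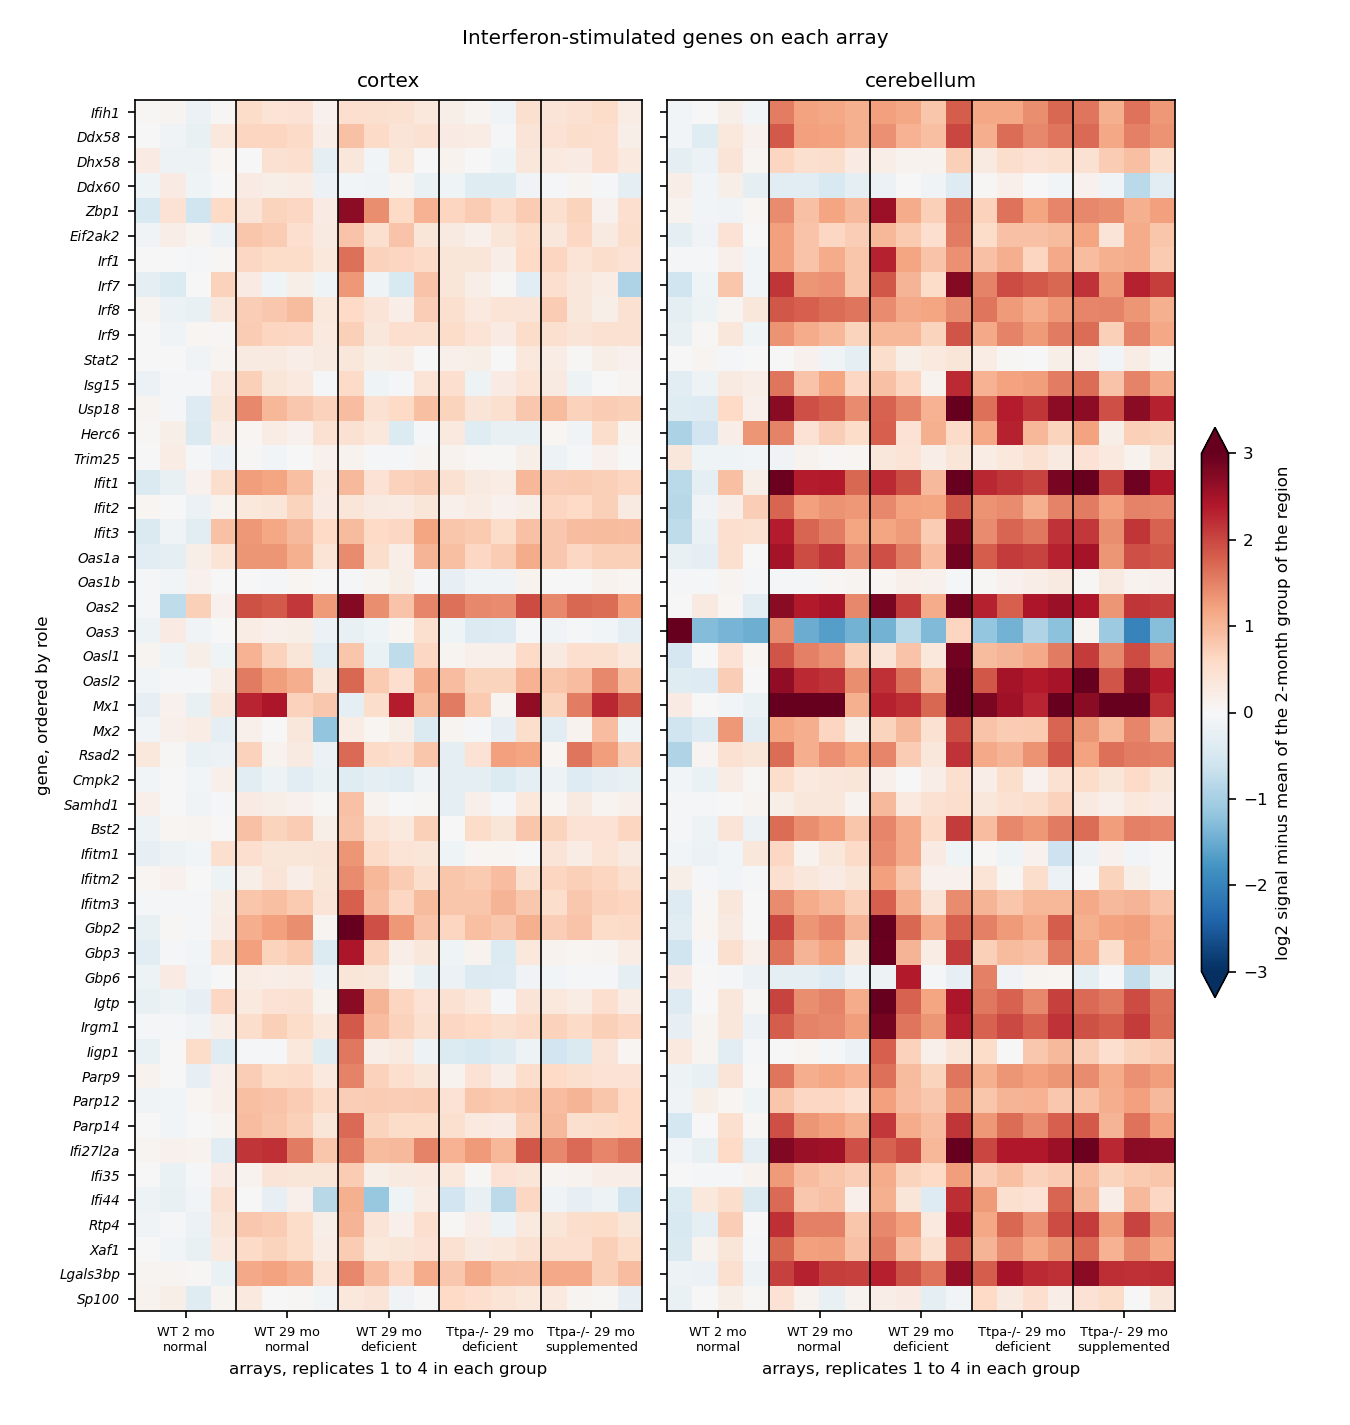
Log2 signal of the 49 genes on each array, minus the mean of the 2-month wild-type group of the same region. Columns are arrays, 4 per group, and rows are genes ordered by role, with red for higher and blue for lower values, and colours stop at 3 and -3. Most rows of the cerebellum are red in all 4 groups of 29 months, and the cortex shows fewer and paler rows.

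Among the sensors, 4 of the 5 tested rose in the aged cerebellum. These were Ddx58, which encodes the RNA sensor RIG-I, by 1.33, the RNA sensor Ifih1 by 1.24, the nucleic acid sensor Zbp1 by 1.11 and the RNA-activated kinase Eif2ak2, which halts translation, by 0.86. Dhx58, a helicase related to Ddx58, changed by 0.47 ± 0.16 (adjusted p = 0.0549, limma) and was not called. The probe of Ddx60 was well above background on 0 of 40 arrays and was not tested.

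Of the 5 transcription factors, 4 rose in the aged cerebellum. Irf8, a factor of the myeloid lineage that microglia require, was at -2.05, -1.95, -1.71 and -1.45 on the 4 young arrays and at 0.08, -0.01, -0.12 and -0.18 on the aged arrays. The lowest aged array lay more than 1 log2 unit above the highest young array, and the rise was 1.73 ± 0.15, or 3.32-fold (adjusted p = 3.0e-10, limma). Irf7, which drives interferon genes, rose by 1.42 with overlapping arrays. Irf9 rose by 1.04 and Irf1 by 1.01. Stat2, a partner of Irf9 at the response element, changed by -0.07 ± 0.09 (adjusted p = 0.722, limma).

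Of the 4 genes of ISG15 conjugation, which links the ubiquitin-like protein Isg15 to other proteins, 2 were called. Usp18, which removes Isg15 and dampens the interferon receptor, was at -2.92, -2.94, -1.96 and -2.42 on young arrays and at 0.14, -0.63, -0.75 and -1.15 on aged arrays. All aged arrays were above all young arrays, and Usp18 rose by 1.96 ± 0.32, or 3.89-fold (adjusted p = 4.7e-05, limma). Isg15 itself rose by 1.06. The ligases Herc6 and Trim25 were not called on the probes that stand for them, with changes of 0.80 and 0.02. A dimmer second probe of each was called higher, with changes of 1.97 for Herc6 and 0.85 for Trim25. Of the 9 genes with several tested probes, these were the 2 whose probes disagreed in the cerebellum.

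All 3 genes of the Ifit family rose in the aged cerebellum. Ifit1 was at -3.97, -3.45, -2.26 and -2.98 on young arrays and at -0.22, -0.82, -0.79 and -1.45 on aged arrays. The young arrays spread over more than 1 log2 unit and still lay below every aged array (2.35 ± 0.37, adjusted p = 2.5e-05, limma). Ifit3 rose by 1.71 and Ifit2 by 1.40. The probes of the 3 genes lie close together on chromosome 19 of mm9, with that of Ifit1 at 34723796 to 34723855.

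Of the Oas family, whose active members make the second messenger of the antiviral RNase L, 4 of the 5 tested genes rose. Oas2 was at -3.38, -3.10, -3.30 and -3.70 on young arrays and at -0.67, -0.99, -0.91 and -1.94 on aged arrays. Oas1a was at -1.67, -1.73, -0.97 and -1.45 on young arrays and at 1.04, 0.49, 0.68 and -0.04 on aged arrays. Oasl2 was at -1.71, -1.73, -0.61 and -1.35 on young arrays and at 1.30, 0.90, 0.81 and 0.04 on aged arrays. Replicate 4 was the lowest aged array for all 3, and none of its values reached the young arrays. The rises were 2.25 ± 0.36 for Oas2, 2.00 ± 0.30 for Oas1a and 2.11 ± 0.36 for Oasl2, which are 4.74-, 4.00- and 4.32-fold, with adjusted p of 3.3e-05, 1.7e-05 and 8.3e-05 (limma). Oasl1 rose by 1.37. Oas1b, which is truncated in most laboratory strains, changed by 0.01 ± 0.07, and Oas3 was above background on 1 of 4 arrays of either age and was not tested. The paralogs of this family are similar in sequence, and signal shared between their probes was not tested.

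Among the antiviral GTPases and nucleotide enzymes, Rsad2, which makes a chain-terminating nucleotide, rose by 1.32. Mx1, whose allele in C57Bl/6 mice encodes no working protein, was above background on 3 of 4 aged and 0 of 4 young arrays and was not tested. The mean of all 4 aged arrays was at least 1.35-fold higher than that of young mice. This bound sets the mean of the aged arrays against the lowest signal well above background on each young array. Mx2 changed by 0.78 ± 0.36 and Samhd1, which degrades nucleotides, by 0.24 ± 0.14, and neither was called. Cmpk2, the neighbour of Rsad2 on chromosome 12, passed the adjusted p at 0.0087 with a 1.31-fold rise, under the fold threshold.

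Of the membrane proteins, Bst2, which tethers budding virus to the cell, rose by 1.29 and Ifitm3, which blocks viral entry, by 1.06. Ifitm3 was at -0.04, 0.39, 0.68 and 0.35 on young arrays and at 1.77, 1.45, 1.35 and 1.06 on aged arrays, without overlap. Its neighbours Ifitm1 and Ifitm2 changed by 0.42 ± 0.23 and 0.36 ± 0.19 and were not called. Among the interferon-inducible GTPases, which attack the vacuoles of intracellular pathogens, Igtp rose by 1.51, Irgm1 by 1.50 and Gbp2 by 1.46. Gbp3 (1.06 ± 0.43) and Iigp1 (-0.04 ± 0.30) were not called, and Gbp6 was above background on 0 of 40 arrays.

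The 3 Parp genes, which encode ADP-ribosyltransferases and relatives, all rose, Parp14 by 1.39, Parp9 by 1.23 and Parp12 by 0.65. Parp12 was at -2.28, -2.01, -2.14 and -2.31 on young arrays and at -1.35, -1.56, -1.56 and -1.67 on aged arrays. Among the other genes, Ifi27l2a was at -0.32, -0.46, 0.35 and -0.52 on young arrays and at 2.54, 2.34, 2.29 and 1.68 on aged arrays (2.45 ± 0.32, adjusted p = 1.1e-06, limma). Lgals3bp, a secreted galectin-binding glycoprotein, was at 0.44, 0.40, 1.07 and 0.43 on young arrays and at 2.64, 2.90, 2.65 and 2.64 on aged arrays. It rose by 2.12 ± 0.20, or 4.35-fold (adjusted p = 1.3e-09, limma). Rtp4 rose by 1.51, Xaf1 by 1.27 and Ifi35 by 0.94. Ifi44 (0.88 ± 0.43) and Sp100 (0.11 ± 0.15) were not called.

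**Figure D2:**
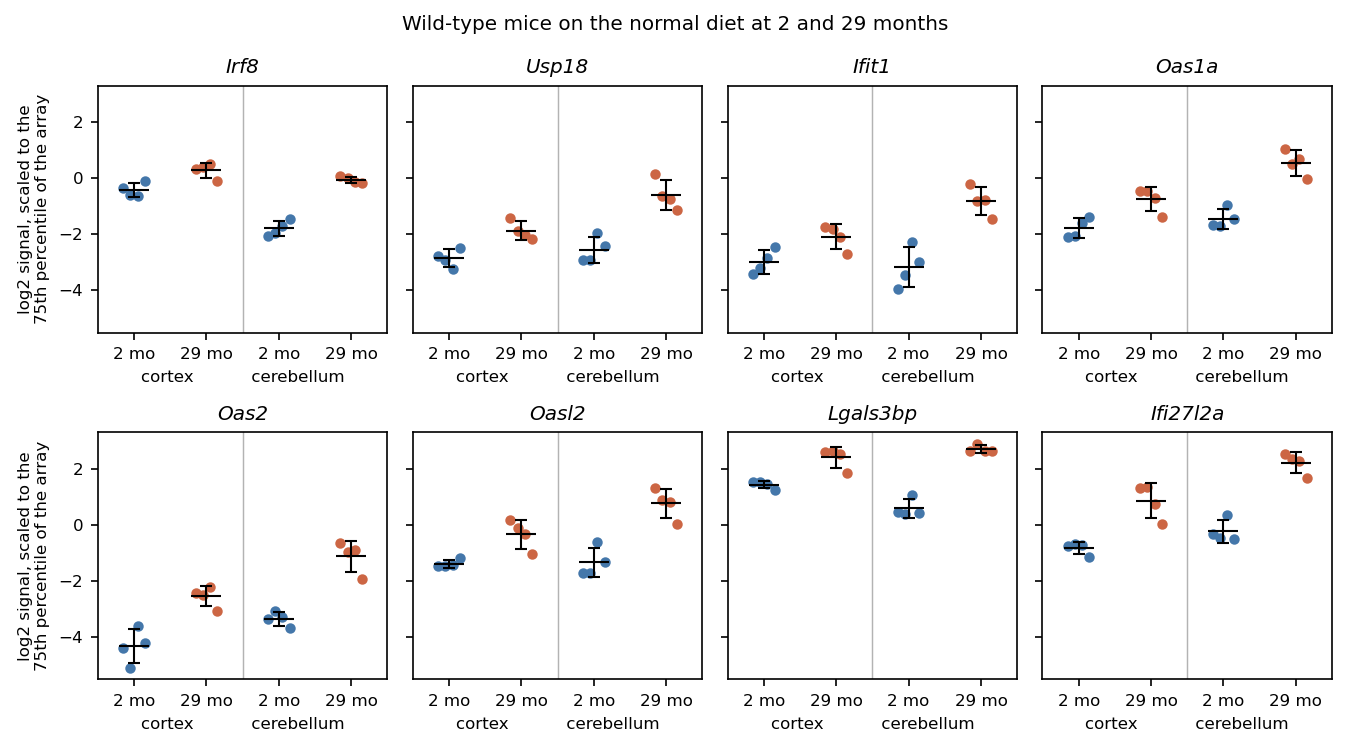
Log2 signal of 8 genes in wild-type mice on the normal diet, relative to the 75th percentile of the array. Points are arrays, from replicate 1 on the left to 4 on the right, bars are the mean and SD of 4 mice, blue is 2 months and orange is 29 months. In the cerebellum every aged array lies above every young array for all 8 genes, and in the cortex the arrays of Irf8 and Ifit1 overlap.

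Cell type markers moved with age as well, and their part in the rise was not tested. Of 10 microglial markers, 8 rose in the aged cerebellum, with a median change of 1.08 over the list. The highest were Cd68, a lysosomal protein of phagocytes, at 2.99, the lipid receptor Trem2 at 2.67 and the complement gene C1qa at 2.25, while P2ry12 (0.29) and Itgam (-0.03) were not called. The log2 of the summed signal of the list was 6.48 to 6.61 in young and 6.86 to 7.03 in aged cerebellum. In bulk RNA, fewer or more cells of a type cannot be told apart from less or more RNA per cell. The 8 endothelial genes held 1 that rose, and their median change was 0.09. Their summed signal was 5.20 to 5.29 in young and 5.41 to 5.74 in aged cerebellum, without overlap. Of 4 blood genes 3 rose, and their summed signal was 1.74 to 3.03 in young and 3.71 to 6.58 in aged cerebellum. Of 8 choroid plexus genes 2 fell, and their summed signal was 3.16 to 7.96 in young and 2.65 to 2.82 in aged cerebellum. Of 8 T-cell genes, 4 were tested, with changes from -0.22 to 0.81 and a median of -0.02, and Lck alone was called, with a rise of 0.81. Cd3d was above background on 3 of 4 aged and 0 of 4 young arrays, Cd3g on 1 and 0, and Cd8a and Cd8b1 on 0, and the summed signal of the list overlapped, at 2.34 to 2.59 in young and 2.27 to 2.79 in aged cerebellum.

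With each of the 8 cerebellar arrays of this comparison left out in turn, 25 to 32 of the genes were called.

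The promoters of these genes were read for 2 sequence elements of the interferon response. RefSeq promoters on GRCm38.p6, from 250 bases before to 50 bases after the start of a transcript, were held for 36 of the 49 genes. The core of the response element, GAAANNGAA on either strand, was in a promoter of 20 of the 36 (55.6%) and of 9.76% of 27025 genes. The gamma-activated site, TTCNNNGAA, which reads alike on both strands, was in 10 of the 36 (27.8%) and in 9.55% of all genes. The response element was in 13 of the 24 genes called in the aged cerebellum that had a promoter and in 5 of the 10 tested and not called, and the gamma-activated site in 9 of 24 and 1 of 10. These stretches are shown for genes of both kinds that rose, and for Stat2, which holds the response element and was not called. Capitals mark matches to either motif, and all bases lie before the start.

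Ifit1, chr19:34640760-34640833, plus strand: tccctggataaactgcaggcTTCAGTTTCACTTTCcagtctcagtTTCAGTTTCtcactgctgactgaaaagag
Ifit3, chr19:34583354-34583455, plus strand: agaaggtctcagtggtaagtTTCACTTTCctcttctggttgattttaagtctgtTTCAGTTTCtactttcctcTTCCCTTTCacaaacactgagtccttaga
Isg15, chr4:156200856-156200916, minus strand: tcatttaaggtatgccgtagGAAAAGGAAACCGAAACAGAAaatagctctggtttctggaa
Oas1a, chr5:120907526-120907643, minus strand: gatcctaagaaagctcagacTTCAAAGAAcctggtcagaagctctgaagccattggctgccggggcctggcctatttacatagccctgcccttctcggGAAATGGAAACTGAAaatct
Bst2, chr8:71537568-71537628, minus strand: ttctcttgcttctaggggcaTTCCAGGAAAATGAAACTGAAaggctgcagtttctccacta
Igtp, chr11:58199491-58199550, plus strand: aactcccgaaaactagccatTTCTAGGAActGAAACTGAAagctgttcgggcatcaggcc
Irf8, chr8:120736167-120736233, plus strand: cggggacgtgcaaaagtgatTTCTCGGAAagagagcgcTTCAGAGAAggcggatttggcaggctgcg
Stat2, chr10:128270257-128270305, plus strand: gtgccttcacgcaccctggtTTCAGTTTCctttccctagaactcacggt

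Ifit1, Ifit3 and Isg15 each hold 3 matches to the response element, which overlap in Isg15 as 1 run of repeats and in part in Ifit1. The matches of Ifit1, Ifit3 and Stat2 are on the minus strand, so that the printed strand shows the reverse complement. Irf8, in the first of its 2 promoters, holds 2 gamma-activated sites and no response element, and Igtp and Oas1a hold both kinds. In Bst2 the gamma-activated site overlaps the first response element. A match describes letters and not binding.

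In the cortex the same comparison gave fewer calls. Of 44 genes tested, 7 rose with age and 0 fell, while 1.59% of all probes tested were called higher. The median change was 0.51 over these genes, 0.48 over all 49 and -0.03 over all probes tested. In aged mice 41 of the 44 were higher, and so were 43.6% of all probes tested. The aged arrays lay entirely above the young for 19 genes, and for 6.88% of all probes. The 7 genes called were Oas2, Ifi27l2a, Oas1a, Lgals3bp, Parp12, Ifitm3 and Irf8.

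Oas2 was at -4.41, -5.12, -3.63 and -4.22 on young cortex arrays, with 1 of the 4 above background, and at -2.43, -2.50, -2.23 and -3.07 on aged arrays. It was thus tested through its aged arrays alone, and its change was 1.79 ± 0.36, or 3.45-fold (adjusted p = 0.0020, limma). With normexp background correction the change was 0.54 (adjusted p = 0.200, limma) and the call was lost. Ifi27l2a was at -0.74, -0.70, -0.73 and -1.16 on young and at 1.30, 1.36, 0.74 and 0.01 on aged arrays. The aged arrays of Ifi27l2a spread over more than 1 log2 unit and lay above all young arrays (1.68 ± 0.32, adjusted p = 0.00098, limma). Oas1a was at -2.09, -2.06, -1.61 and -1.37 on young and at -0.46, -0.45, -0.71 and -1.37 on aged arrays, so that replicate 4 of both ages nearly met (1.04 ± 0.30, adjusted p = 0.0450, limma). A second tested probe of Oas1a was not called.

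Lgals3bp was at 1.52, 1.51, 1.47 and 1.25 on young cortex arrays and at 2.58, 2.65, 2.54 and 1.85 on aged arrays, a rise of 0.97 ± 0.20. Parp12 was at -2.99, -2.96, -2.82 and -2.73 on young and at -1.98, -2.01, -2.11 and -2.31 on aged arrays. The rise of Parp12, 0.77 ± 0.11, had the lowest adjusted p of the genes in the cortex (3.7e-05, limma), but was 0.30 with normexp, under the fold threshold. Ifitm3 was at 0.05, 0.04, 0.05 and 0.27 on young and at 0.94, 1.01, 0.89 and 0.48 on aged arrays (0.73 ± 0.21, adjusted p = 0.0388, limma). Irf8 was at -0.35, -0.59, -0.65 and -0.09 on young and at 0.33, 0.39, 0.52 and -0.10 on aged arrays. It rose by 0.71 ± 0.15 (adjusted p = 0.0035, limma), and the lowest aged and highest young arrays overlapped.

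Some genes with larger changes and larger standard errors were not called in the cortex. Oasl2 changed by 1.06 ± 0.36 (adjusted p = 0.0948, limma), Ifit3 by 1.01 ± 0.32 (0.0668), Usp18 by 0.98 ± 0.32 (0.0792) and Ifit1 by 0.91 ± 0.37 (0.195). The count was 4 with the 2 groups fitted alone, with median scaling and with normexp background correction. It was 16 with array weights. Oas1a and Ifitm3 each lost the call when any one of 6 of the 8 arrays was left out, all but replicate 4 of either age. Lgals3bp and Irf8 lost it with the compared groups alone, and Irf8 also with median scaling. Of the 10 microglial markers 3 rose in the aged cortex, C1qa, Cd68 and Trem2, and their summed signal overlapped, at 7.20 to 7.37 in young and 7.10 to 7.53 in aged mice. Of 4 blood genes 1 rose, and their summed signal was -1.09 to 1.11 in young and 2.38 to 3.62 in aged cortex. Choroid plexus genes were low on replicate 4 of both ages, with a summed signal of 1.56 in young and 2.32 in aged mice, and the part of these cells in the values was not tested.

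All 7 genes called in the cortex were also called in the cerebellum, where they were 22.6% of the calls. Of the 44 genes tested in both regions, 41 had the larger change in the cerebellum, and so had 54.2% of all probes tested in either region. The difference between the 2 changes was tested as an interaction, and 5 of 45 genes were called with the larger rise in the cerebellum and 0 with the larger rise in the cortex, while 1% of all probes tested were called in the first direction. Lgals3bp rose by 1.15 ± 0.28 more (adjusted p = 0.0218, limma), Irf8 by 1.03 ± 0.21 more (0.0058), Ifit2 by 1.01 ± 0.27 more (0.0420) and the RNA sensor Ifih1 by 0.87 ± 0.22 more (0.0329). Of the 10 microglial markers, 8 were also called with the larger rise in the cerebellum, with a median difference of 1.04 over the list, and their part in these differences was not tested. Young and aged arrays shared a slide in the cortex alone, so that region and slide cannot be told apart in these differences.

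Among these 5 genes, Cmpk2 alone changed in opposite directions. It was at 0.53, 0.64, 0.54 and 0.77 on young and at 0.30, 0.47, 0.29 and 0.43 on aged cortex arrays, and at -0.22, -0.34, 0.07 and -0.11 on young and 0.39, 0.15, 0.19 and 0.21 on aged cerebellum arrays. The aged arrays were all lower in the cortex, as for 1986 of 28043 probes tested, and all higher in the cerebellum, as for 9.85%. Neither change of Cmpk2 was called, with -0.25 in the cortex (adjusted p = 0.183, limma) and 0.39 in the cerebellum, under the fold threshold. The 2 changes differed by 0.64 ± 0.14 (adjusted p = 0.0099, limma). The largest difference was that of Ifit1, 1.44 ± 0.52, which did not pass (adjusted p = 0.195, limma). With median scaling none of the 5 genes was called for the interaction, and with each of the 16 arrays left out 1 to 5 were, with the lowest count, 1, without replicate 2 of young cerebellum. It was 2 without replicate 4 of young or aged cortex or replicate 1 of aged cerebellum.

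**Figure D3:**
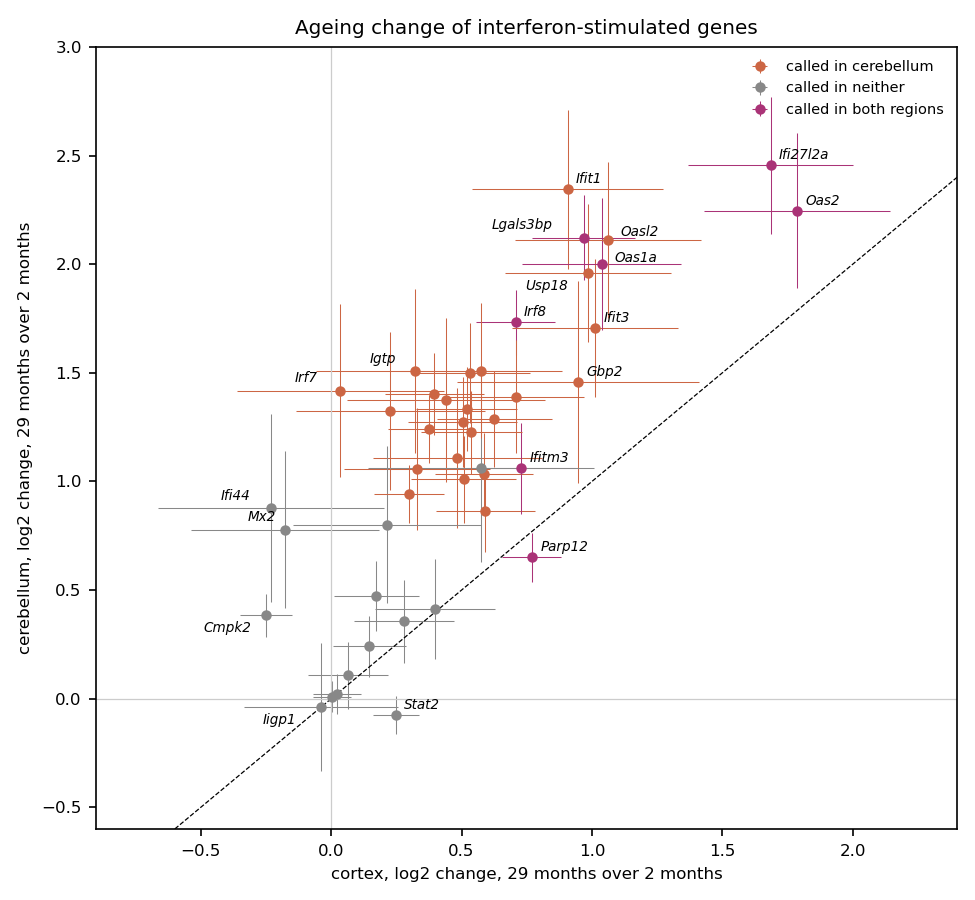
Log2 change from 2 to 29 months in cerebellum against cortex for the 45 genes tested in at least one region, with the standard error of each. The dashed line marks equal change, and colours mark genes called in both regions, in the cerebellum or in neither. Most genes lie above the line, Parp12 and Stat2 lie below it, and Cmpk2 is below 0 in the cortex and above 0 in the cerebellum.

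The levels of the 2 regions were also compared directly, as cerebellum over cortex. At 2 months 4 genes were called higher and 7 lower in the cerebellum, while 19.3% and 19.1% of all probes were, and the median difference over the 45 genes was 0.01. Stat2 (1.78 ± 0.09), Dhx58 (1.53 ± 0.16), Oas2 (0.97) and Parp12 (0.69) were higher in young cerebellum. Herc6 (-1.69 ± 0.36, above background on 1 of 4 young cerebellar arrays), Irf8 (-1.37 ± 0.15), Ifit2 (-1.05), Igtp (-0.91), Lgals3bp (-0.85), Cmpk2 (-0.77) and Irf1 (-0.64) were lower there. Herc6 was thus tested through its cortical arrays alone. Oas2 was tested through its cerebellar arrays alone, since it was above background on 1 of 4 young cortex arrays. With normexp background correction 7 of these 11 were called. Of the 10 microglial markers, 9 were called lower in young cerebellum, with a median of -1.72, and 4 in aged cerebellum, with a median of -0.38, and their part in the differences between regions was not tested.

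At 29 months 17 genes were called higher and 1 lower in the cerebellum, while 17.8% and 15.8% of all probes were, and the median difference was 0.57. Dhx58 (1.83) and Irf7 (1.49) differed most among those higher, followed by Stat2 (1.46), Oas2 (1.43), Ifit3 (1.37), Ifi27l2a (1.36), Oas1a (1.29), Usp18 (1.27), Ifit1 (1.26), Ifi44 (1.17), Oasl1 (1.16), Rsad2 (1.11), Irf9 (0.96), Parp9 (0.81) and Parp14 (0.60). Oasl2 and Mx2 were each 2.14-fold higher. Ifi44 was tested through its cerebellar arrays alone, since not all of its aged cortex arrays were above background. Herc6 was the one called lower (-1.10). Irf8, which was lower in young cerebellum, was at 0.29 ± 0.27 (SD, n = 4) in aged cortex and at -0.06 ± 0.12 in aged cerebellum, and was not called at that age (-0.34, 95% interval -0.65 to -0.04, adjusted p = 0.0507, limma). Young cortex and young cerebellum, and aged cortex and aged cerebellum, lay on different slides, so that slide and region cannot be told apart.

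Vitamin E status was compared among mice of 29 months to ask whether oxidative stress changes the same genes. Ttpa-/- mice on the deficient diet were set against wild-type mice on the normal diet. Of 44 genes tested in the cortex and 45 in the cerebellum, 0 were called by limma in either region, while 4.75% and 4.46% of all probes were called in either direction. At an unadjusted p under 0.05 there were 3 genes in the cortex and 7 in the cerebellum. The share of all probes under that p was not computed for any comparison, so such counts cannot be weighed against it. The median change was -0.13 in the cortex, where 9 of 44 genes were higher, and 0.06 in the cerebellum, where 29 of 45 were. Over all probes tested the median was -0.02 in either region, and 46.6% were higher in the cortex and 46.2% in the cerebellum. The 95% interval was -0.76 to 0.53 for Ifi27l2a, -0.77 to 0.72 for Ifit1, -0.69 to 0.76 for Oas2 and -0.34 to 0.46 for Lgals3bp in the cerebellum. The upper end of each interval lies below the rise of the same gene with age in the same region. These genes were picked for their large rises, and both comparisons use the same aged wild-type arrays with opposite sign. High values on those arrays would raise the one change and lower the other, and the difference between the changes was not tested. Trim25 passed the adjusted p with a 1.23-fold higher level in the cerebellum (0.0320, limma). Its dimmer second probe disagreed, at -0.05 in the cerebellum (adjusted p = 0.873, limma) and -0.43 in the cortex (0.0338). The dimmer second probe of Oas1b passed the adjusted p in the cerebellum at 0.38 (0.0049, limma), also under the fold threshold.

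On the supplemented diet, Ttpa-/- mice had 0 called genes of 45 in the cortex and of 46 in the cerebellum against the same wild-type mice, by limma, while 0.092% and 4.91% of all probes were called. At an unadjusted p under 0.05 there were 0 genes in the cortex and 4 in the cerebellum. Parp12 and Trim25 passed the adjusted p in the cerebellum with changes of 1.31- and 1.21-fold, both higher. Between Ttpa-/- mice on the 2 diets, 0 of 45 genes in the cortex and 0 of 46 in the cerebellum were called by limma, while 3.31% and 0.343% of all probes were, and 1 and 0 genes had an unadjusted p under 0.05. The median change was -0.11 and -0.04 for the deficient over the supplemented diet.

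In wild-type mice, the deficient diet against the normal diet gave 0 called genes of 44 in the cortex and of 45 in the cerebellum by limma, while 0.223% and 1.28% of all probes were called. At an unadjusted p under 0.05 there were 4 and 9 genes. In the cerebellum, where both groups shared a slide, Stat2 passed the adjusted p with a change of 0.42 ± 0.09 (0.0096, limma) and Parp12 with 0.42 ± 0.11 (0.0292), both under the fold threshold. Irf8 passed in none of the comparisons with wild-type cerebellum on the normal diet. Its change was -0.42 for Ttpa-/- mice on the deficient diet (adjusted p = 0.0619, limma), -0.40 on the supplemented diet (0.0717) and -0.44 for wild-type mice on the deficient diet (0.0799). These 3 comparisons share their control arrays.

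Between genotypes on the deficient diet, Ttpa-/- over wild-type, 1 of 45 genes was called lower in the cerebellum, Ifitm1, while 1.92% of all probes were called lower. Ifitm1 was at 0.69, 0.42, -0.48 and -0.86 in wild-type mice and at -0.69, -0.86, -0.59 and -1.34 in Ttpa-/- mice. The arrays overlapped, since replicate 4 of the wild-type mice lay in the range of the Ttpa-/- mice (-0.81 ± 0.23, adjusted p = 0.0179, limma). The gene was not called with median scaling, with the 2 groups fitted alone, or without replicate 1 or 2 of the wild-type mice or replicate 4 of the Ttpa-/- mice. In the cortex 0 of 44 genes were called by limma, while 3.07% of all probes were called in either direction, and 8 genes had an unadjusted p under 0.05. There the largest changes were those of Gbp2 (-1.16, 95% interval -2.11 to -0.22, adjusted p = 0.0914, limma) and Gbp3 (-0.94). In the wild-type mice Gbp2 was at 2.31 on replicate 1 and at 0.27, -0.36 and -0.82 on the others, and Gbp3 was also highest on replicate 1. The count was 5, all lower, without replicate 4 of the wild-type cortex on the deficient diet, and 6 with array weights.

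**Figure D4:**
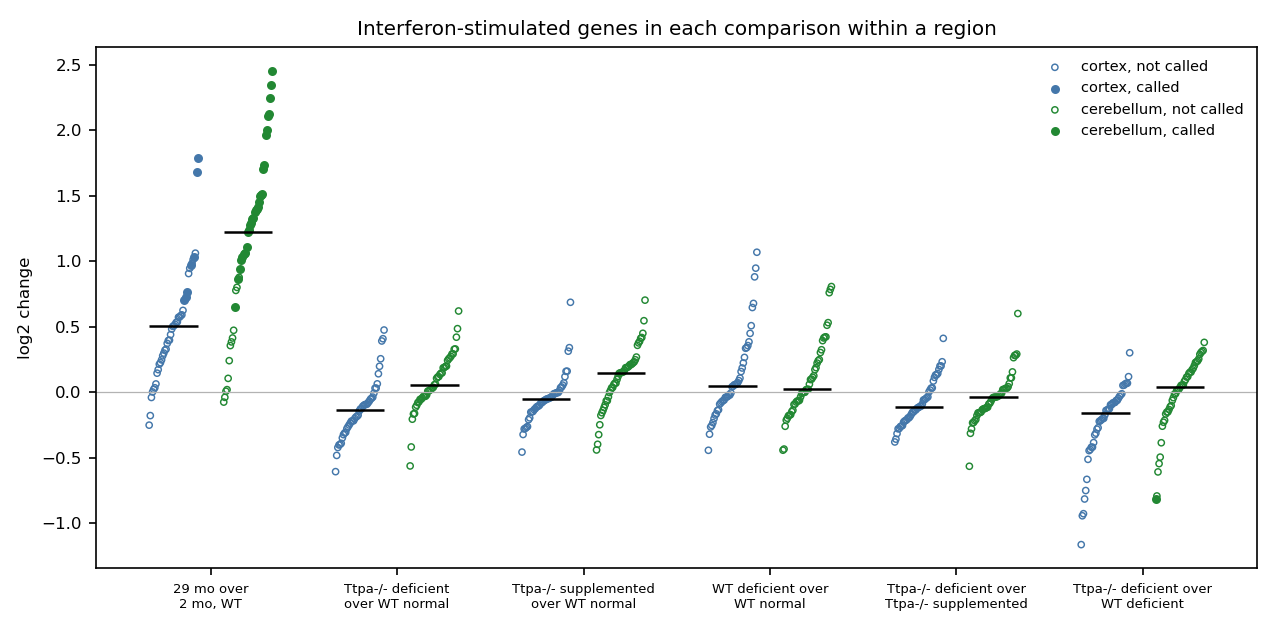
Log2 change of each tested gene in the 6 comparisons within a region, with filled points for called genes, open points for the others blue for cortex, green for cerebellum and a black line at the median. The medians lie at 0.51 and 1.23 for age and between -0.15 and 0.15 in the others, where Ifitm1 is the 1 filled point.

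The 29-month groups stayed above the young group whatever the diet or genotype. The median over 45 genes, taken on each array as the difference from the mean of the young group, was 0.83 to 1.63 in wild-type cerebellum on the normal diet and 0.60 to 1.88 on the deficient diet. It was 1.07 to 1.55 in Ttpa-/- cerebellum on the deficient diet and 1.07 to 1.45 on the supplemented diet, against -0.25 to 0.33 in young cerebellum. In the cortex it was 0.26 to 0.65, 0.39 to 0.94, 0.24 to 0.54 and 0.43 to 0.51 in the same order, against -0.06 to 0.15 in young mice. The mean level of Ifi27l2a, for example, was -0.24 ± 0.40 (SD, n = 4) in young cerebellum and 2.21 ± 0.37, 1.78 ± 0.98, 2.10 ± 0.24 and 2.41 ± 0.28 in the 4 groups of 29 months.

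**Figure D5:**
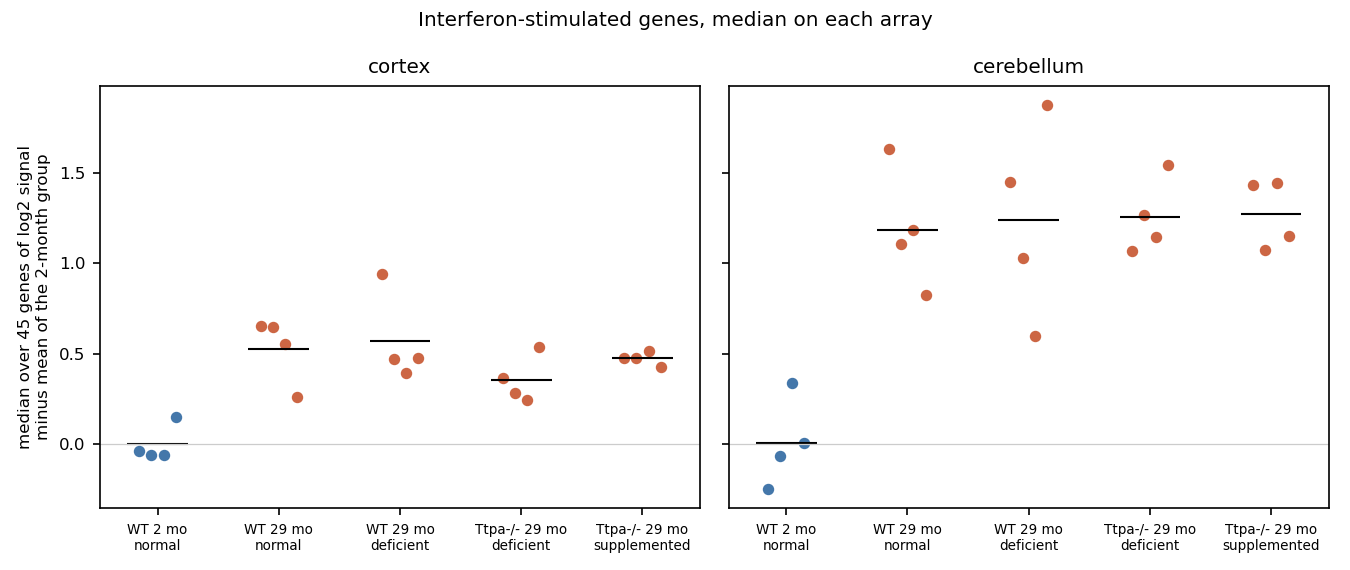
Median over 45 genes of the log2 signal minus the mean of the 2-month group, for each array of the 10 groups, with a line at the group mean. Every array of 29 months lies above every young array of its region, and the widest group is wild-type cerebellum on the deficient diet, from 0.60 to 1.88.

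In 9 of the 10 groups the mice differed more in these genes than in all probes, by the median SD. The median SD between the 4 arrays of wild-type cerebellum on the deficient diet was 0.64 over 45 genes and 0.16 over 31372 probes tested. It was 0.35 and 0.17 in the cortex of that group, and 0.29 and 0.14 in aged wild-type cerebellum on the normal diet. In Ttpa-/- cortex on the supplemented diet it was 0.12, below the 0.15 of all probes. Over the 20 cerebellar arrays, with group means removed, the median correlation of 990 pairs of genes was 0.52, and over the 20 cortical arrays it was 0.41. The arrays share their scaling and slide, and pairs of other genes were not computed.

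In wild-type mice on the deficient diet, single arrays stood above the others of their group. The pattern was noticed in the values and has no test. Replicate 1 of the cortex had the highest median over the 45 genes among the cortical arrays of 29 months, 0.94, and was the highest of its group in every family, with 1.48 for the Parp genes, 1.42 for the Oas family and 0.87 for the sensors. The interferon-inducible GTPases were higher still there, and were also high in replicate 1 of the cerebellum. Gbp2, relative to young mice, was at 3.98 in replicate 1 and at 1.94, 1.31 and 0.85 in the other cortex arrays, and at 4.22 against 1.71, 1.14 and 1.80 in the cerebellum. Igtp was at 2.70 against 1.03, 0.64 and 0.44 in the cortex, and at 3.89 against 1.78, 1.18 and 2.42 in the cerebellum. The median over the 5 measured GTPases was 2.42 in replicate 1 of the cortex and 2.97 in that of the cerebellum, the highest value among the 16 arrays of 29 months in either region. Iigp1, which was not called in any comparison, was at 1.57 and 1.80 in the same arrays and between -0.16 and 0.68 in the other 6. Replicate 1 also had the highest summed endothelial signal of all arrays of its region, 6.03 in the cortex and 6.04 in the cerebellum. The median over the endothelial genes, relative to young mice, was 0.12 and 0.005 there. The summed oligodendrocyte signal was 7.20 and 6.82, and the part of these cells in the values was not tested.

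In the cerebellum, replicate 4 had the highest Ifit and Oas genes of the group. The median over the Ifit family was 2.74 there and 1.44, 1.28 and 0.96 in replicates 1 to 3, and over the Oas family 2.89 against 1.94, 1.54 and 0.92. The median over the GTPases was 2.09 in that array. The cortex array with the same number was at 0.73 for the Ifit family and 1.01 for the Oas family. The labels do not say that arrays of 1 number came from 1 mouse. Ifnb1, which encodes interferon beta, was above background on 2 of the 40 arrays, replicate 1 of the cortex and replicate 4 of the cerebellum in this group, with signals of -3.86 and -4.01. Ifng, which encodes interferon gamma, was above background on neither. Cd3d and Cd3g were above background on replicate 1 of the cerebellum in this group and on 0 of the cortical arrays. The summed signal of the 8 T-cell genes did not stand out on that cerebellar array, at 2.21 within a group range of 2.07 to 2.31.

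Most other genes of the pathway were not called for age. Of 8 ligand genes, 1 was tested in the cortex and 3 in the cerebellum, and 0 were called by limma for age. Ifnb1, Ifna4 and Ifne were above background on 0 of the 16 arrays of the ageing comparisons. Ifna5, an interferon alpha gene with a dim probe, was called higher in Ttpa-/- cerebellum at 29 months. It was at -3.88, -4.43, -3.84 and -4.05 in wild-type mice of that age fed the normal diet, at -2.93, -3.07, -3.35 and -3.17 in Ttpa-/- mice on the deficient diet and at -3.07, -2.92, -3.56 and -2.88 on the supplemented diet. The change was 0.92 ± 0.23 on the deficient diet (adjusted p = 0.0079, limma) and 0.94 ± 0.23 on the supplemented diet (0.0063) against the same control arrays, and 0.74 ± 0.23 between genotypes on the deficient diet (0.0308). Of 6 receptor genes, Il10rb, a shared chain of the interferon lambda and interleukin-10 receptors, rose by 0.82 in the cerebellum and none was called in the cortex. Il28ra, the specific chain of the lambda receptor, was above background on 4 of 4 aged and 1 of 4 young cerebellar arrays and was not called (adjusted p = 0.194, limma). The chains Ifnar1 and Ifnar2 of the type I receptor changed by -0.25 and 0.14 in the cerebellum. Among the kinases and transducers, Jak2 changed by 0.36 in the cerebellum and 0.27 in the cortex, and Stat3 by 0.36 and 0.39. Both passed the adjusted p in both regions and stayed under the fold threshold.

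Of 14 genes that induce interferon, 13 were tested in each region. Irf5, a factor downstream of Toll-like receptors, rose by 1.41 in the cerebellum and Tmem173, which encodes the DNA-sensing adaptor STING, by 0.95, and 0 were called in the cortex. E330016A19Rik, the older name of the gene of the DNA sensor cGAS, changed by 0.45 in the cerebellum (adjusted p = 0.0363, limma), under the fold threshold. Of 3 inhibitors, Socs3 rose by 0.89 in the cortex and was at 0.44 in the cerebellum, where it was not called.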

How the data were processed

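Total RNA of 40 samples was hybridized to Agilent 1-colour arrays of 62976 spots. The authors deposited scanner files with background-corrected intensities (processed signal) and flags for each spot, which the file headers give to Feature Extraction 10.7.3.1 and the labels to 10.1.1.1, and a series table of log2 values scaled to the 75th percentile of each array. Probe positions are those of mm9 in the scanner files. From the processed signal, replicate spots were averaged, 55589 probes were kept and log2 values were taken relative to the 75th percentile of the array. These differed from the deposited log2 values by a median of 0.00085. No probe value was saturated. The 75th percentile of the processed signal ranged from 365 to 925 over the arrays, and the precision of each value is limited by the 4 arrays of a group. A model with 10 group means was fitted with limma 3.58.1 in R 4.3.3 to all 40 arrays, and p-values were adjusted by Benjamini-Hochberg over all probes tested in a comparison.

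The 49 members and the gene lists were chosen with earlier results of these data known. Values on every array were given for the called members with the 8 largest changes in each ageing comparison and the 4 largest in each other comparison within a region, and every called member was named. Values per array are also given for Cmpk2, and for Ifitm3 and Parp12 in the cerebellum, and for Gbp2, Igtp, Iigp1 and gene families in the mice on the deficient diet, which were chosen after their values were seen. Of the members' accessions, 43 matched RefSeq. Alternatives were median scaling, quantile normalization, normexp with an offset of 50, the deposited values, no filter on dim probes, no fold threshold, array weights, the compared groups alone, the methods' t-test, and each array left out. A block for the slide could not be fitted, since each group lay within 1 slide. A block for replicate number was tried as an alternative. Arrays of the same condition and number in both regions correlated from -0.102 to 0.437 in their deviations from group means, so the numbers were not treated as pairs. The fit was tested on simulated data. One gene of the pathway is not reported here.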

Additional observations from a re-analysis of the deposited data

Results flagged for a closer look

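Within a group of 4 arrays, an array was listed when its gap to the nearest other array was above Dixon's critical share of the group's range (95% level). Of 110 groups examined for the 11 genes shown on every array, 11 held such an array, and chance gives about 1 in 20 groups. Replicate 4 of young cortex was listed for 4 genes, with Ifi27l2a at -1.16 (others -0.74 to -0.70), Lgals3bp at 1.25 (1.47 to 1.52), Ifitm3 at 0.27 (0.04 to 0.05) and Oasl2 at -1.19 (-1.49 to -1.45). It was thus low for 2 of these genes and high for the other 2. Lgals3bp was listed in 4 more groups, at 1.85 in replicate 4 of aged wild-type cortex on the normal diet (others 2.54 to 2.65), 1.07 in replicate 3 of young cerebellum (0.40 to 0.44), 2.90 in replicate 2 of aged wild-type cerebellum on the normal diet (2.64 to 2.65) and 3.30 in replicate 1 of Ttpa-/- cerebellum on the supplemented diet (2.78 to 2.81). Parp12 was at -2.44 in replicate 1 of Ttpa-/- cortex on the deficient diet (-2.08 to -2.05). Ifitm3 was at 1.17 in replicate 2 of Ttpa-/- cerebellum on that diet (1.34 to 1.37). Oasl2 was at 0.04 in replicate 3 of Ttpa-/- cortex on the supplemented diet (-0.57 to -0.48).

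The change with age differed between the regions by limma's interaction term for 5 genes, all with the higher change in the cerebellum: Lgals3bp by 1.15, Irf8 by 1.03, Ifit2 by 1.01, Ifih1 by 0.87 and Cmpk2 by 0.64. With median scaling none of the 5 was called, and region and slide cannot be told apart in these differences.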

How the results depend on the processing

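The count of genes called in the aged cerebellum was 23 (the methods' t-test, adjusted) to 33 over the alternatives and 25 to 32 with each array left out, against 31. In the aged cortex the 7 calls became 4 with median scaling, with normexp and with the compared groups alone, 16 with array weights or the methods' t-test unadjusted, 1 with that test adjusted, and 5 to 10 with an array left out. Array weights gave 1 call for Ttpa-/- on the deficient over wild-type on the normal diet in cortex, 1 for the supplemented diet in cerebellum, 3 for the deficient diet in wild-type cortex and 6 between genotypes in cortex, all against 0. The compared groups alone gave 1 call, and no fold threshold 2, for the supplemented diet in Ttpa-/- cerebellum, and no fold threshold gave 1 for Ttpa-/- on the deficient diet and 2 for the deficient diet in wild-type cerebellum. Normexp gave 1 between genotypes in cortex and 7 against 11 between regions at 2 months. Between genotypes in cerebellum, median scaling and the compared groups alone gave 0 against 1. For the interaction, median scaling gave 0 and no filter on dim probes 3 against 5.

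With an array left out, the deficient diet in wild-type mice gave 0 to 1 calls in cortex (1 without replicate 4 on that diet) and 0 to 1 in cerebellum (1 without replicate 3). Genotypes gave 0 to 5 in cortex (5 without replicate 4 of the wild type) and 0 to 3 in cerebellum (2 without replicate 3 and 3 without replicate 4 of the wild type, 0 without its replicate 1 or 2 or replicate 4 of the Ttpa-/- mice). The interaction gave 1 to 5. The replicate block gave 7 calls in aged cortex, 31 in aged cerebellum and 1 between genotypes in cerebellum, and changed no count. Same-numbered arrays did not all deviate together, and 25 of 40 arrays correlated best with their own number in the other region. Of 302 values of single genes, 268 kept their side of the threshold, 34 lost the call and 0 reversed. All 34 were cortical ageing values or Ifitm1, whose change was -0.63 (adjusted p = 0.0811) with median scaling, and the 8 cerebellar genes shown on every array kept theirs under every alternative run. The cause of these differences was not tested. Median scaling moved the median of all probes to -0.188 for the deficient diet in wild-type cerebellum and to 0.167 between genotypes there. Dim probes limit Oas3, Gbp6, Ddx60 and Mx1, and the median 95% interval within a region reached 0.46 to 0.47 to either side.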
